A study of Homo sapiens with 15 samples.

Results

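The H3K4me3 and H3K27ac signal at the zinc finger genes of chromosome 19 was analysed in MDA-MB-231 cells (Par) and in 2 sub-populations derived from them, LM2 and BrM2. The members were the protein-coding genes of chromosome 19 whose symbol is ZNF followed by digits and at most 1 letter, which gave 246 of the 20175 protein-coding genes in the GENCODE annotation of the hg19 build. A member was linked to each consensus peak of a mark that lay within 2 kb of the start of its gene record. MDA-MB-231 is a human triple-negative, claudin-low breast cancer cell line. LM2 was selected in mice from this line for growth in the lung and BrM2 for growth in the brain, so each is a single selected sub-population, and a change between lines cannot be told apart from a difference fixed when that sub-population was founded. All 3 lines were grown as untreated monolayers in the same medium, and each line and mark had 2 ChIP-seq libraries, while the 3 input samples had no count column and were not analysed here.

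Most of these genes encode proteins with a row of C2H2 zinc fingers that read DNA, often joined to a KRAB domain. A KRAB domain recruits the corepressor TRIM28 (KAP1), which brings histone H3K9 methylation and silences the bound sequence, in many cases a retroelement. The genes arose by repeated tandem duplication, so neighbours are often close relatives. H3K4me3 marks the starts of active genes, above all at CpG-rich promoters, and H3K27ac marks active promoters and enhancers.

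The 12 libraries held between 1994996 and 9839629 reads in consensus peaks, and these totals set the counting precision of each value. The claudin-low markers VIM, CD44, AXL, ZEB1 and CAV1 carried H3K4me3 in all lines, the peak linked to MSN held at most 10.6 normalised counts in any library, and ESR1 and CLDN4 had no H3K4me3 peak within 2 kb of the start of the gene record. CDKN2A, which is deleted in this line, had no peak of either mark. Of 7 luminal or epithelial genes, 5 had an H3K4me3 peak, and with line only CLDN7 alone was called, higher in BrM2 by 1.28 on the log2 scale against Par. With the replicate number as a block in the fit, GATA3 was also lower in LM2, and GATA3 and EPCAM were higher in BrM2 than in LM2. Of the claudin-low markers, CAV1 was then lower in H3K4me3 in both sub-populations against Par. In BrM2 against Par, AXL and CD44 were also higher and ZEB1 was lower. The part of these genes in the results below was not tested.

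Of the 246 members, 201 (81.7%) had an H3K4me3 peak and 197 (80.1%) an H3K27ac peak at the start. The share of all protein-coding genes was 64.8% for H3K4me3 and 65.9% for H3K27ac, and that of the 262 ZNF genes on other chromosomes was 84.7% and 86.3%. All 197 members with H3K27ac also had H3K4me3. ZNF257, ZNF492, ZNF99 and ZNF132 had H3K4me3 only, and 45 members had neither mark. With the starts of all protein-coding transcripts, 220 members had an H3K4me3 peak, and 25 members were without one at either kind of start, among them ZNF177, ZNF208, ZNF471 and ZNF154. The member peaks numbered 194 for H3K4me3, of which 187 spanned the start itself, and 191 for H3K27ac. Some peaks were shared, since 7 H3K4me3 peaks and 9 H3K27ac peaks lay at the starts of 2 or more members.

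The signal at a marked member was like that at other promoters in height per length. In Par, the H3K4me3 level had a median of 147 normalised reads per kb over the 194 member peaks, with quartiles of 114 and 183, against a median of 145 over the 11155 peaks at all coding starts. ZNF844, ZNF554 and ZNF653 had the highest levels, at 382, 376 and 366 normalised reads per kb. The lowest were ZNF492, ZNF257 and ZNF99, at 0.309, 1.85 and 2.71, and these 3 peaks are marked in BrM2. For H3K27ac the median in Par was 33.9 normalised reads per kb, with ZNF844 highest at 139 and ZNF550 lowest at 11.4.

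The members' promoters shared a sequence feature that the choice of members did not use. The heptamer CCGGAAG, the core of the motif bound by ETS factors, was present on either strand in 101 of 246 members (41.1%) within the 300 bases from 250 before to 50 after the start. It was present in 11.8% of all coding promoters of this length, in 13.2% of those of other chromosome 19 genes and in 25.6% of those of ZNF genes elsewhere. Of the members with H3K4me3, 89 of 201 (44.3%) held it, of the 45 without, 12 (26.7%) did, and of the 25 without it at either kind of start, 10 (40.0%) did. Other motifs were near their background. AAGATGG, the YY1 core, was in 6.10% of members and 5.63% of all promoters, and GCGCATG, the NRF1 core, in 5.69% and 5.25%. TATAAA was in 7.32% and 10.9%, and the CRE palindrome TGACGTCA in 2.85% and 2.29%. GC content had a median of 58.0% in members and 60.3% in all promoters, and the ratio of observed to expected CpG was 0.718 and 0.694. Each match is of letters only.

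A run of members in the 19p12 cluster carried H3K4me3 in BrM2 and little or none in Par. Between the starts of ZNF43 and ZNF724, over 1398 kb, lie the starts of 10 members: ZNF208, ZNF257, ZNF676, ZNF729, ZNF98, ZNF492, ZNF99, ZNF723, ZNF728 and ZNF730. The stretch held 5 H3K4me3 peaks besides those of the flanking genes, each at the start of one of these members, and no H3K27ac peak. ZNF257, ZNF492 and ZNF99 were linked through the start of their gene record, and ZNF98 and ZNF730 through the start of another annotated transcript. Consensus peaks were called on pooled libraries, so a peak with few reads in Par and LM2 entered the set mainly through BrM2. The tests at such peaks do not allow for that choice, and a high BrM2 value there was partly given by it. The upstream sequences of 4 of these starts and of one flanking gene show how alike they are. Each is the 200 bases before the start in the GRCh37 genome (hg19), read 5′ to 3′ on the strand of the gene, with CpG dinucleotides in capitals. They lie at chr19:22235032-22235231 (plus strand), chr19:22605160-22605359 (minus), chr19:22816926-22817125 (plus), chr19:23299627-23299826 (plus) and chr19:23433197-23433396 (minus). ZNF724 is the flanking gene, marked in all 3 lines.
ZNF257: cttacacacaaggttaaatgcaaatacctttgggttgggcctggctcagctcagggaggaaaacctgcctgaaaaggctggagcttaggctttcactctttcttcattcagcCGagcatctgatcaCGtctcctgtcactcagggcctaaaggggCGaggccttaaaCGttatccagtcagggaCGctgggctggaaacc
ZNF98: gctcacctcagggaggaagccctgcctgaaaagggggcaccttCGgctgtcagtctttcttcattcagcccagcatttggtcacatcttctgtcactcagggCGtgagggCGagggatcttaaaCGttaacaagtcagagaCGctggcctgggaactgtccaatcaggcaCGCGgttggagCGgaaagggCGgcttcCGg
ZNF492: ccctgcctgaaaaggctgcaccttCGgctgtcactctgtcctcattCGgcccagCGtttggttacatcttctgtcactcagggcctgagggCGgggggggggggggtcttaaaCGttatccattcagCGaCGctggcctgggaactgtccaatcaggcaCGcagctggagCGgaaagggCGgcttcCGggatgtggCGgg
ZNF730: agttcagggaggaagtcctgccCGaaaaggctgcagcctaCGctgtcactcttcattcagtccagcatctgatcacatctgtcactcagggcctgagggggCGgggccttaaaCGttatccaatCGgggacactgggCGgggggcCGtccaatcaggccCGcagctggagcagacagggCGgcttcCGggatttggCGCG
ZNF724: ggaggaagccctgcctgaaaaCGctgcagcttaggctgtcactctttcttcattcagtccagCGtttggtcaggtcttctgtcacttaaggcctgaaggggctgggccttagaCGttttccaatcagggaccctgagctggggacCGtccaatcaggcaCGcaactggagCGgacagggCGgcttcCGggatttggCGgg

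In pairwise global alignments, ZNF98, ZNF492, ZNF730 and ZNF724 were 73.5% to 81.6% identical over the alignment columns. The share was lower in the pairs with ZNF257, at 44.7% to 54.3%. These alignments took 245 to 262 columns for sequences of 200 bases each, against 207 to 219 columns in the other pairs. Unpaired bases count as columns, so an offset between the printed windows lowers the share as well, and the share does not rank ZNF257 by distance. The number of CpG in these 200 bases was 5 in ZNF257, 10 in ZNF98, 12 in ZNF492, 12 in ZNF730 and 9 in the marked ZNF724. The ETS heptamer, read on this strand as CTTCCGG, stands near the start in ZNF98, ZNF492, ZNF730 and ZNF724. It is not in the printed bases of ZNF257, but ZNF257 does hold it within the 300 bases around the gene start. The study's methods give Bowtie2 at its default settings, under which a read that aligns equally well to several places is assigned to one of them, so values at near-identical starts may share reads and are uncertain to that extent.

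The peak of ZNF257, which encodes a KRAB zinc finger protein, lies at chr19:22234419-22236580 and spans the start. Its normalised H3K4me3 counts were 1.84 and 6.16 (Par), 1.52 and 4.76 (LM2) and 145 and 173 (BrM2). Both BrM2 libraries stood far above the other 4, which overlapped each other. In bulk libraries, the mark on more cells and more of the mark in each cell cannot be told apart. The log2 fold change was 5.10 ± 0.69 (SE) for BrM2 against Par (DESeq2 adjusted p = 1.14e-10) and 5.42 ± 0.68 for BrM2 against LM2 (DESeq2 adjusted p = 1.42e-12). Over the pooled reads, 388 in BrM2 and 9 in Par, the ratio was 33.6 after scaling (95% exact interval 17.5 to 74.0, counting error only).

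ZNF492, with its peak at chr19:22816460-22817707, gave 0 and 0.771 normalised counts (Par), 1.52 and 2.12 (LM2) and 77.8 and 80.9 (BrM2). Its log2 fold change against LM2 was 5.36 ± 0.88 (DESeq2 adjusted p = 3.34e-07), and it was also called against Par (DESeq2 adjusted p = 6.56e-05). Par held a single read, against 189 in BrM2, so the ratio of 147 has a wide counting interval of 26.1 to 5844. At ZNF99, whose peak is 426 bp long, the counts were 0 and 2.31 (Par), 0 and 1.59 (LM2) and 11.9 and 14.9 (BrM2). The BrM2 values were again above all others, but this peak did not pass the test against Par (log2 fold change 3.23 ± 1.49, DESeq2 adjusted p = 0.351). Against LM2 it passed only with the replicate number as a block (DESeq2 adjusted p = 0.222 without and 0.0333 with it).

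The peak at the other start of ZNF98, chr19:22604525-22605198, gave 0 and 1.54 (Par), 3.05 and 2.65 (LM2) and 50.1 and 55.4 (BrM2). It was higher in BrM2 than in Par by 5.66 ± 1.24 and than in LM2 by 4.25 ± 0.87 on the log2 scale (DESeq2 adjusted p = 0.000451 and 0.000111). ZNF730 differed from the other 4 in that LM2 was raised as well. Its peak at chr19:23299378-23300448 gave 1.84 and 2.31 (Par), 25.9 and 20.6 (LM2) and 68.5 and 84.0 (BrM2), so the 3 lines did not overlap. The log2 fold change was 3.41 ± 0.92 for LM2 and 5.15 ± 0.90 for BrM2 against Par (DESeq2 adjusted p = 0.0128 and 2.20e-06). The step from LM2 to BrM2, 1.74 ± 0.56, did not pass with line only (DESeq2 adjusted p = 0.0562) and passed with the replicate number as a block (DESeq2 adjusted p = 0.00343).

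**Figure D1:**
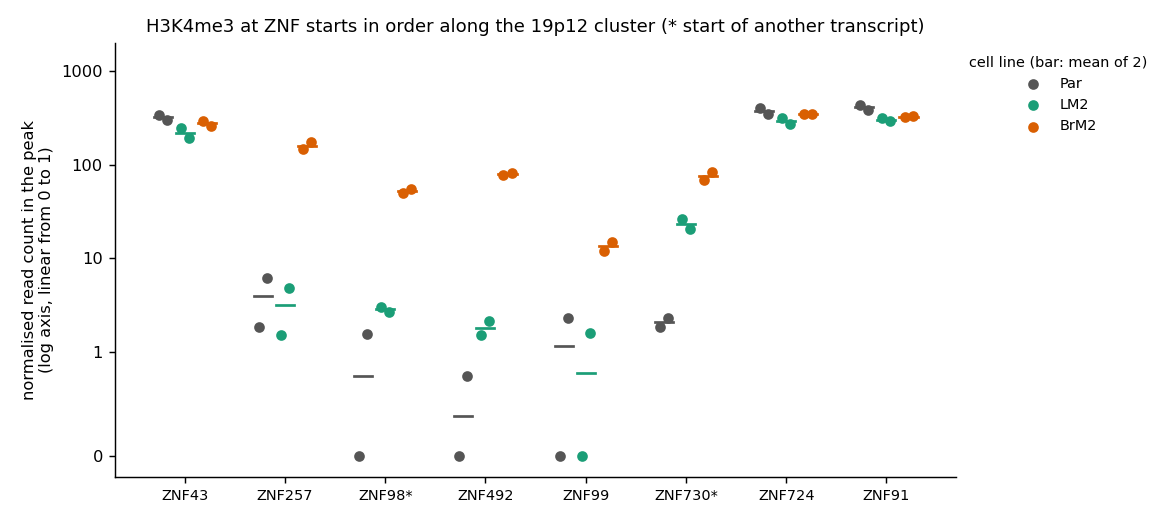
Normalised H3K4me3 read count per library (log axis, linear from 0 to 1) at ZNF starts in order along the 19p12 cluster, with 2 points per line and a bar at their mean; a star marks the start of another annotated transcript. In ZNF257, ZNF98, ZNF492, ZNF99 and ZNF730 both BrM2 points lie above all Par and LM2 points, whereas ZNF43, ZNF724 and ZNF91 are marked in the 3 lines.

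The genes on either side did not share the pattern. ZNF43 gave 342 and 301 normalised H3K4me3 counts (Par), 244 and 193 (LM2) and 293 and 258 (BrM2). ZNF724 gave 404 and 343 (Par), 317 and 269 (LM2) and 344 and 342 (BrM2). ZNF91, which represses SVA and L1 retroelements, gave 435 and 379 (Par), 313 and 290 (LM2) and 320 and 330 (BrM2). None of these 3 peaks passed the test in BrM2 against Par. Another start of ZNF43, with its own peak at chr19:22018075-22019091, was lower in LM2: the counts were 244 and 217 (Par), 96.1 and 96.3 (LM2) and 194 and 189 (BrM2) (log2 fold change -1.26 ± 0.36 for LM2 against Par, DESeq2 adjusted p = 0.0211).

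Over all members, few single peaks passed the test, and the background of calls was low as well. In H3K4me3, 2 of 194 member peaks were called in BrM2 against Par, ZNF257 and ZNF492, both higher, where 3.61% of all peaks tested were called. The same 2 peaks were called in BrM2 against LM2, where the background was 3.18%. In LM2 against Par none was called by DESeq2 or by edgeR, with a background of 2.51%. At an unadjusted p under 0.05, 7 of 194 member peaks were lower and 0 higher in this comparison. Of all 22572 peaks, 510 were lower and 1320 higher (8.11% in either direction), and of 11155 at coding promoters 276 and 561. At the adjusted threshold, the share of members called was below the background in the 3 comparisons of this mark. LM2 and BrM2 were each compared with the same 2 Par libraries, so their values against Par are not independent of each other.

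Fitting the replicate number as a block changed these counts. Libraries with the same number deviated together from their line means, and with the block DESeq2 called 3 member peaks higher and 16 lower in LM2 against Par. The backgrounds were 8.90% of peaks higher and 5.49% lower, and the members' shares were 1.55% and 8.29%. In BrM2 against Par, 9 were higher (4.64%) and 41 lower (21.1%), where 8.55% and 9.11% of all peaks were. In BrM2 against LM2, 17 were called in each direction (8.76%), with backgrounds of 8.99% higher and 13.0% lower. Among promoters the share called lower with the block in LM2 was 7.65% of all coding promoters, 14.4% of those of ZNF genes on other chromosomes and 1.79% of those of other chromosome 19 genes, so the members' share was near that of all coding promoters. In BrM2 against Par the shares were 14.3%, 22.7% and 11.6%, so the members' share was near that of ZNF genes elsewhere.

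The small downward displacement was spread over many members. The median log2 fold change in H3K4me3 was -0.22 for LM2 and -0.24 for BrM2 against Par, with 142 and 147 of 194 peaks below 0. Over all coding promoters the medians were 0.00 and -0.08, over other promoters of chromosome 19 they were 0.04 and 0.09, and over ZNF promoters elsewhere -0.08 and -0.16. Both LM2 libraries lay below both Par libraries at 79 member peaks (40.7%), against 16.0% of all peaks, and above them at 8 (4.12%), against 18.0%. Both BrM2 libraries lay below both Par libraries at 82 (42.3%), against 17.3%, and above at 17 (8.76%), against 21.6%. Among ZNF promoters elsewhere the shares below were 24.5% in LM2 and 27.8% in BrM2, and among all coding promoters 18.0% and 19.6%. The medians of the log2 fold change moved with single libraries. Over the leave-outs the members' LM2 median ran from -0.34 (without LM2 replicate 2) to -0.17 (without Par replicate 2), beside 0.11 and -0.08 for all coding promoters. Without LM2 replicate 1 the members' median was -0.19, beside -0.13 for all coding promoters and -0.21 for ZNF promoters elsewhere. In BrM2 without replicate 1 these 3 medians were -0.23, -0.15 and -0.24. With size factors from other peaks of chromosome 19, the median of all H3K4me3 peaks in BrM2 against Par itself moved to -0.13 and that of members to -0.36.

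In H3K27ac the LM2 displacement was closer to that of all coding promoters than in H3K4me3, whereas the BrM2 displacement was about as far from it in both marks. The median over the 191 member peaks was -0.214 for LM2 and -0.217 for BrM2 against Par, with 144 and 126 below 0. All coding promoters had -0.127 and -0.065, and other promoters of chromosome 19 had -0.011 and 0.119. ZNF promoters elsewhere had -0.212 and -0.124, so in LM2 the members' median was near theirs. Both LM2 libraries lay below both Par libraries at 52 member peaks (27.2%), where 21.6% of all peaks did, and above at 12 (6.28%), where 21.7% did. For BrM2 these counts were 51 below (26.7%, background 25.4%) and 23 above (background 25.0%). Among ZNF promoters elsewhere the shares below were 30.0% in LM2 and 27.8% in BrM2, and those above 3.59% and 13.5%. Among all coding promoters the shares below were 24.8% and 25.1%, and those above 11.3% and 18.5%. The low share above in LM2 was thus not particular to the members. Without Par replicate 2 the members' medians were -0.07 and -0.03, beside -0.04 and 0.03 for all coding promoters. Without LM2 replicate 1 the LM2 median was -0.10, without LM2 replicate 2 it was -0.35, and without BrM2 replicate 1 the BrM2 median was -0.13.

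**Figure D2:**
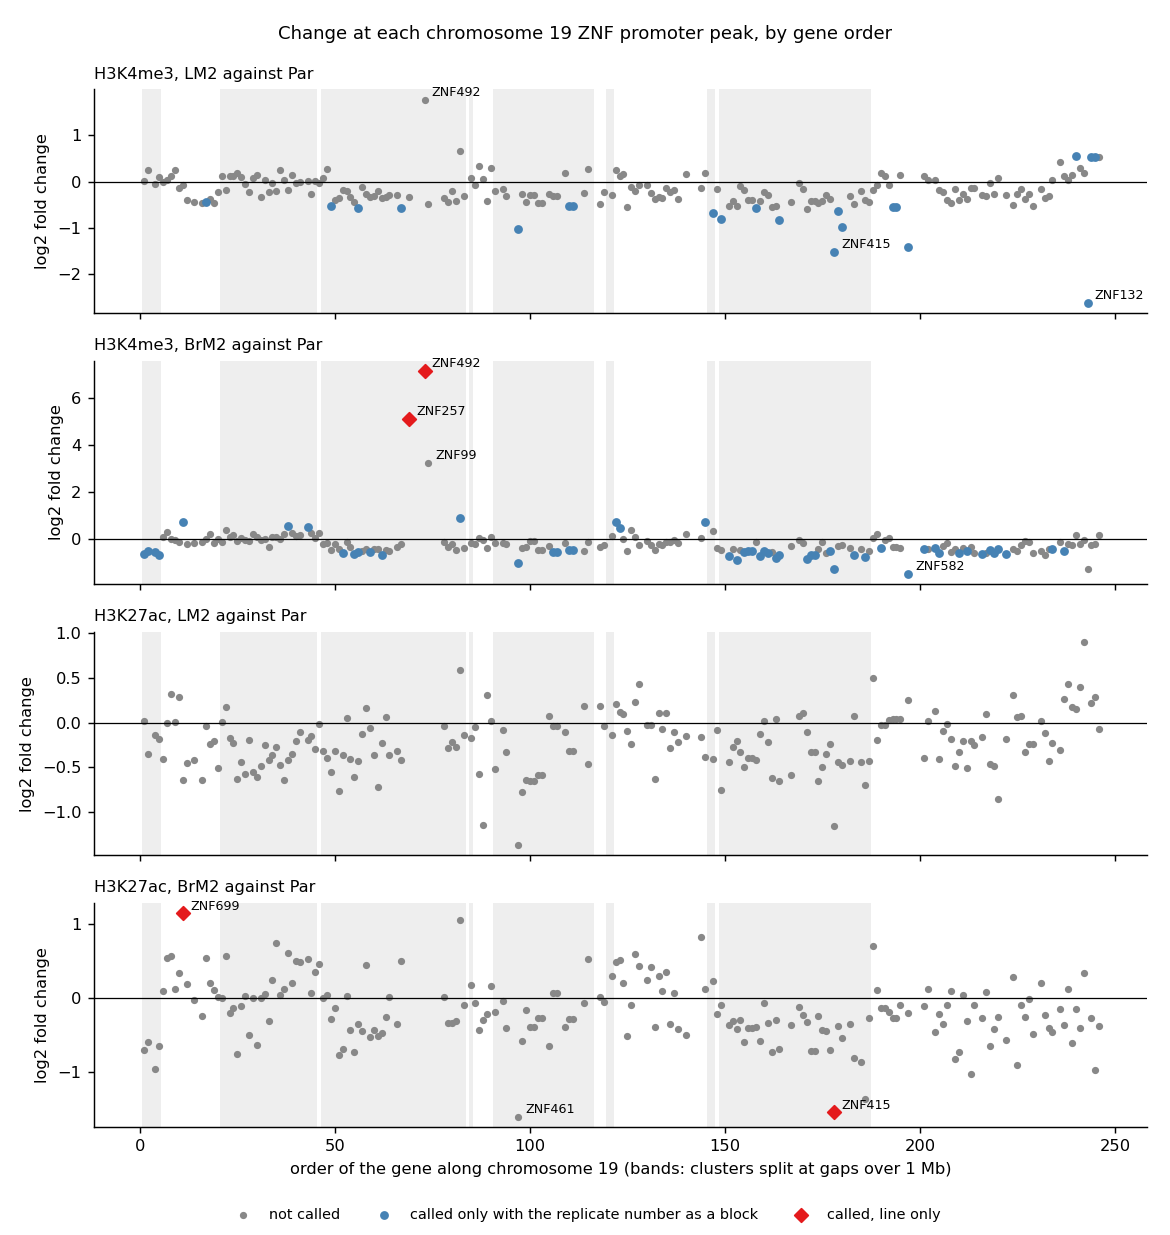
Log2 fold change of the peak at each member (y axis, a different range in each panel) against the order of the gene along chromosome 19, for both marks and both sub-populations against Par; grey bands are clusters, red diamonds were called with line only in DESeq2 and blue points only with the replicate number as a block. Most H3K4me3 points lie a little below 0, and ZNF257 and ZNF492 stand far above it in BrM2.

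The members fall into 16 clusters when split at gaps over 1 Mb, and the clusters differed. In H3K4me3, the largest displacement among clusters with more than 10 peaks was in ZNF175 to ZNF331 on the long arm, which holds 39 members and 31 H3K4me3 peaks. Its median was -0.42 in LM2 and -0.49 in BrM2, with all 31 below 0 in each. With the block 15 were called lower in BrM2, where 21.1% of all member peaks and 14.3% of all coding promoters were. The 16 other H3K4me3 peaks within this span had medians of -0.39 and -0.18. Its H3K27ac medians were -0.42 and -0.40, and the 32 other H3K27ac peaks of the span lay lower, at -0.48 and -0.51. In the telomeric cluster ZNF628 to ZNF446, 43 of 48 H3K4me3 peaks were below 0 in BrM2 (median -0.39) and 30 of 48 in LM2 (median -0.15). The 32 other H3K4me3 peaks of that span had medians of -0.16 in BrM2 and 0.03 in LM2. The 19p12 cluster ZNF101 to ZNF254, which holds the stretch with the raised BrM2 signal, otherwise lay below Par as well. There 25 of 29 peaks were below 0 in each sub-population, with medians of -0.32 in LM2 and -0.37 in BrM2. The 19 other H3K4me3 peaks of this span, which include starts of other member transcripts, had medians of -0.53 and -0.20. In LM2 the other peaks thus lay lower than the members. By contrast, the 24 peaks of ZNF653 to ZNF490 had medians of 0.01 and 0.10 in H3K4me3. In H3K27ac this cluster lay below Par in LM2, with a median of -0.33 and 22 of 24 peaks below 0, and at 0.05 in BrM2. The 17 other H3K27ac peaks of its span had medians of -0.24 in LM2 and 0.32 in BrM2.

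The small cluster ZNF554 to ZNF77 near the short-arm telomere separated the 2 sub-populations. Its 4 marked members, ZNF554, ZNF555, ZNF57 and ZNF77, had a median H3K4me3 change of 0.06 in LM2 and -0.59 in BrM2, and of -0.16 and -0.68 in H3K27ac. At ZNF77 the H3K4me3 counts were 599 and 485 (Par), 677 and 485 (LM2) and 377 and 307 (BrM2), so BrM2 lay below the other lines. None of the 4 was called with line only. With the block all 4 H3K4me3 peaks and none of the H3K27ac peaks were called lower in BrM2 against Par and against LM2, the H3K4me3 peak of ZNF77 by 0.66 and 0.74 (DESeq2 adjusted p = 5.78e-05 and 2.17e-06). Over all members the H3K4me3 shares called lower in these comparisons were 21.1% and 8.76%.

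**Figure D3:**
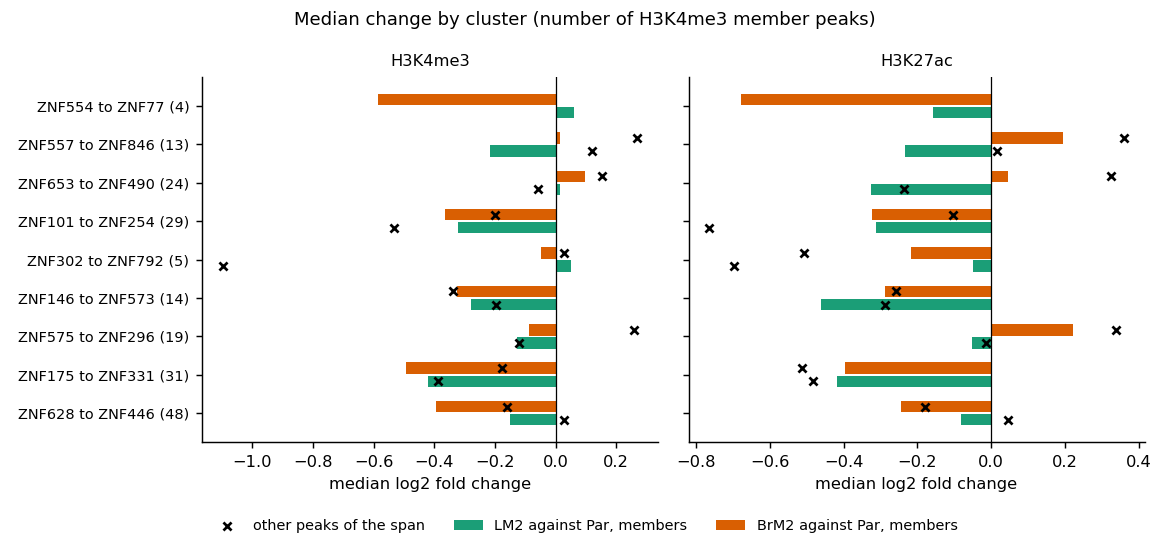
Median log2 fold change against Par of the member peaks in each cluster with at least 4 H3K4me3 peaks (bars, the number of peaks in brackets), with crosses for the other consensus peaks of the same span. ZNF175 to ZNF331 lies at -0.42 and -0.49 in H3K4me3, and ZNF554 to ZNF77 lies at 0.06 in LM2 and -0.59 in BrM2 in this mark.

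In H3K27ac, 2 of 191 member peaks were called in BrM2 against Par, 1 in each direction, where 5.29% of all peaks tested were called, and 1 in BrM2 against LM2, where 2.94% were. None was called in LM2 against Par by DESeq2 or edgeR, with a background of 3.63%. In that comparison 1 member peak was higher and 5 lower at an unadjusted p under 0.05. Of all 62195 peaks, 4180 were higher and 2620 lower (10.9% in either direction), and of 11562 at coding promoters 289 and 525. The block left the 3 counts of called member peaks as they were in DESeq2.

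ZNF699, a gene at the short-arm cluster ZNF557 to ZNF846, rose in BrM2 in H3K27ac. Its H3K27ac counts in the peak chr19:9415762-9421093 were 232 and 221 (Par), 160 and 130 (LM2) and 515 and 482 (BrM2). The 3 lines did not overlap, with LM2 lowest and BrM2 highest. BrM2 exceeded Par by 1.14 ± 0.27 and LM2 by 1.77 ± 0.27 on the log2 scale (DESeq2 adjusted p = 0.00165 and 1.05e-07). Without Par replicate 2, BrM2 replicate 1 or BrM2 replicate 2, the call against Par was lost (DESeq2 adjusted p = 0.0565, 0.160 and 0.0540). Its H3K4me3 counts were 505 and 462 (Par), 541 and 386 (LM2) and 828 and 785 (BrM2). The H3K4me3 difference from Par, 0.74 ± 0.32, was called only with the block (DESeq2 adjusted p = 0.283 without and 3.28e-06 with it).

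ZNF415, a regulator reported to act on p53 and AP-1 signalling, fell in H3K27ac in BrM2. Its upstream sequence holds 3 CpG in 200 bases, beside 5 in ZNF257 and 9 to 12 in the other starts printed above. It lies at chr19:53636331-53636530 (minus strand, GRCh37, CpG in capitals) and is shown because ZNF415 was the member called lower in this mark.
ZNF415: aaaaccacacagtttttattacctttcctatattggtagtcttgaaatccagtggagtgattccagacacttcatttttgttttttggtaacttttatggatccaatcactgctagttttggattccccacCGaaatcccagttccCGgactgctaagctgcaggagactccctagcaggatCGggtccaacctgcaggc

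In H3K27ac, ZNF415 gave 57.5 and 93.1 normalised counts (Par), 25.2 and 43.4 (LM2) and 20.5 and 32.8 (BrM2). Both sub-populations lay below Par in every library. The BrM2 difference of -1.54 ± 0.50 was just called (DESeq2 adjusted p = 0.0422), and leaving out any 1 library ended the call. In H3K4me3 the counts were 116 and 173 (Par), 35.1 and 64.1 (LM2) and 43.5 and 75.9 (BrM2), and both sub-populations again lay below Par. The log2 fold changes were -1.52 ± 0.48 for LM2 and -1.27 ± 0.48 for BrM2. These were not called with line only (DESeq2 adjusted p = 0.0614 and 0.151) and were called with the block (DESeq2 adjusted p = 4.02e-05 and 0.000640).

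Other members stood out in the same direction without passing the line-only test. ZNF461 gave H3K4me3 counts of 217 and 260 (Par), 97.6 and 134 (LM2) and 87.0 and 148 (BrM2). It was called lower in both sub-populations with the block (DESeq2 adjusted p = 0.000287 and 0.000273). Its H3K27ac difference in BrM2 was -1.60 ± 0.68 (DESeq2 adjusted p = 0.183). ZNF582 gave 57.0 and 63.2 H3K4me3 counts (Par), 21.3 and 23.8 (LM2) and 29.0 and 15.6 (BrM2). Its differences of -1.41 and -1.48 had DESeq2 adjusted p = 0.260 and 0.165, and with the block 0.0369 and 0.0185. ZNF132 had 33.1 and 33.9 (Par), 1.52 and 7.94 (LM2) and 11.9 and 15.6 (BrM2). Its LM2 difference of -2.62 ± 0.82 had the smallest unadjusted p of the members in that comparison (DESeq2 adjusted p = 0.0527), and with the block it was called (DESeq2 adjusted p = 0.00520). In the other direction, ZNF726 gave H3K4me3 counts of 103 and 113 (Par), 186 and 157 (LM2) and 191 and 213 (BrM2), and H3K27ac counts of 34.0 and 30.0 (Par), 48.2 and 48.3 (LM2) and 67.3 and 65.5 (BrM2). Its BrM2 differences were 0.91 and 1.05 (DESeq2 adjusted p = 0.201 and 0.146), and with the block the first was called (DESeq2 adjusted p = 0.00201) and the second was not (DESeq2 adjusted p = 0.0979).

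The remaining peaks named by rank did not pass the line-only test either. In LM2 against Par, ZNF497 and ZNF446 followed ZNF726 in H3K4me3, at 0.55 and 0.52 (with the block DESeq2 adjusted p = 0.0273 and 0.0912), and ZNF584 and ZNF628 led in H3K27ac, at 0.90 and 0.50. ZNF528 was at -0.66 in H3K27ac in LM2, and ZNF57 at -0.96 in BrM2. Between the sub-populations, ZNF114 was nearest to a call in H3K4me3. Its counts were 195 and 217 (Par), 117 and 138 (LM2) and 248 and 280 (BrM2) (1.04 ± 0.35 for BrM2 against LM2, DESeq2 adjusted p = 0.0735, and 9.85e-06 with the block). ZNF563 and ZNF180 were higher in value in BrM2 than in LM2 in H3K27ac, by 1.01 and 0.98, and ZNF324 and ZNF837 were at -1.25 and -0.81. ZNF274, which recruits SETDB1 to the 3′ ends of zinc finger genes, was at -0.62 in H3K4me3, where it was called with the block (DESeq2 adjusted p = 6.65e-05), and at -0.63 in H3K27ac.

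**Figure D4:**
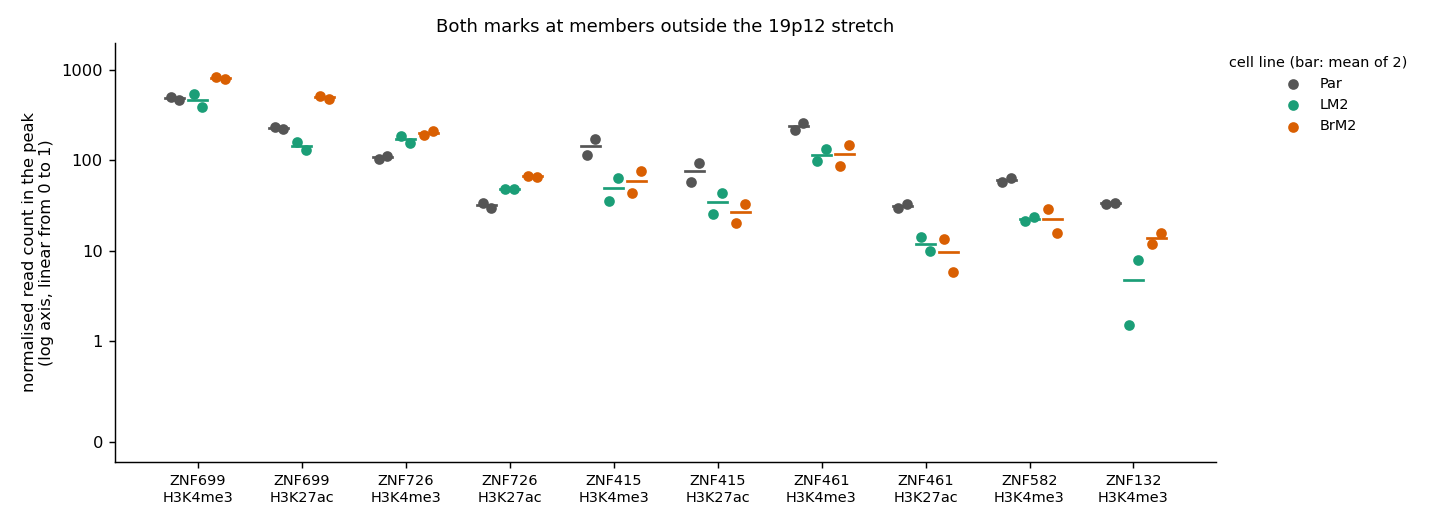
Normalised read count per library (log axis, linear from 0 to 1) at 6 members outside the raised stretch, with 2 points per line and a bar at their mean. Both marks are drawn for ZNF699, ZNF726, ZNF415 and ZNF461, and H3K4me3 alone for ZNF582 and ZNF132. ZNF699 is highest in BrM2, and ZNF415, ZNF461 and ZNF582 are higher in Par than in the sub-populations.

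A start within ZNF331, an imprinted gene, had no H3K4me3 read in BrM2. The peak chr19:54057550-54058341 lies at the start of an annotated transcript other than the gene record's, and the 200 bases before it, at chr19:54057553-54057752 (plus strand, GRCh37, CpG in capitals), hold 22 CpG.
ZNF331: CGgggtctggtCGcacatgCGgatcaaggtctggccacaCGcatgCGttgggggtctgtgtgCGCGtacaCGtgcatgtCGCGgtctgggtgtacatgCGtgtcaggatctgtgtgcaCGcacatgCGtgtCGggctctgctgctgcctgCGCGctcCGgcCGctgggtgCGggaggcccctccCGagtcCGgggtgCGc

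The H3K4me3 counts were 12.9 and 30.1 (Par), 21.3 and 30.7 (LM2) and 0 and 0 (BrM2). With 46 reads in Par and 72 in LM2, BrM2 was at least 19.7-fold lower than Par and 22.3-fold lower than LM2, taking 3 reads over the group as the floor. The peak was called in both comparisons (DESeq2 adjusted p = 0.00114 and 0.000597). The other starts of ZNF331 kept the mark in BrM2. At the gene record's start the counts were 164 and 234 (Par), 108 and 184 (LM2) and 112 and 165 (BrM2), and at a start upstream of the empty one, chr19:54040540-54042261, they were 107 and 147 (Par), 83.9 and 120 (LM2) and 111 and 101 (BrM2). With all transcript starts, the H3K4me3 calls among members in BrM2 against Par thus were ZNF257, ZNF98, ZNF492 and ZNF730 higher and ZNF331 lower.

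The marks moved partly together over the 197 members that had both. The sign of the change was the same in 138 (70.1%) in LM2 against Par and in 154 (78.2%) in BrM2 against Par. In BrM2, 121 were below 0 in both marks and 33 above. Across genes, Pearson's r between the changes in the marks was 0.33 in LM2 and 0.65 in BrM2 (Spearman's rho 0.28 and 0.60, n = 197 genes). Genes of 1 cluster are not independent, and each contrast shares its 2 lines. The widest disagreement in LM2 was ZNF582, at -1.41 in H3K4me3 and 0.25 in an H3K27ac peak with at most 6.01 normalised counts in any library, followed by ZNF599, at 0.05 and -1.14. In BrM2 it was ZNF85, at -0.43 and 0.44.

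**Figure D5:**
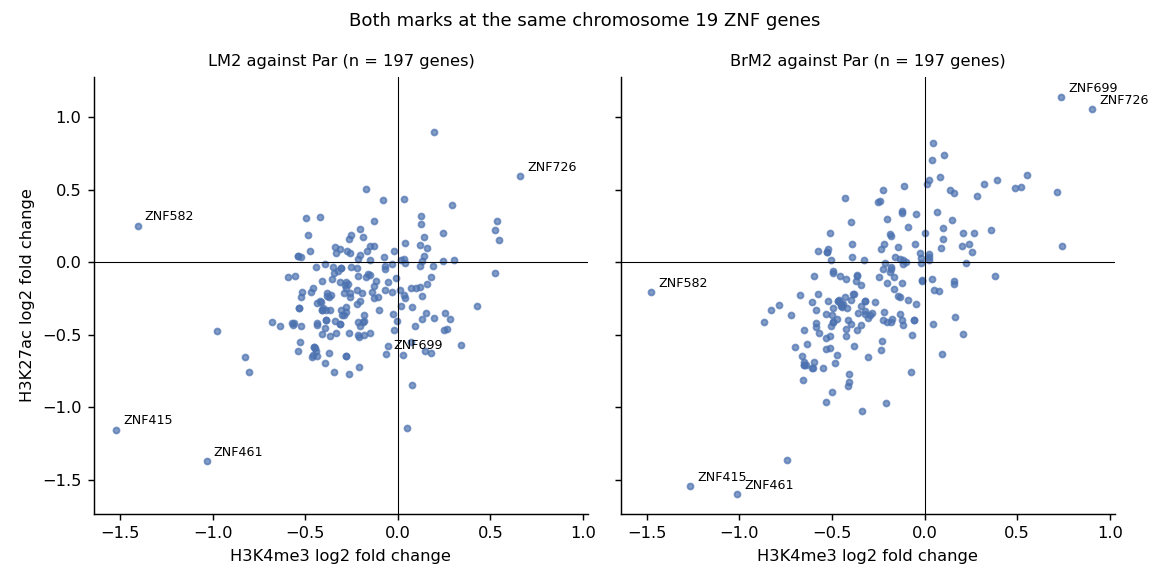
Log2 fold change against Par of H3K27ac (y axis) and H3K4me3 (x axis) at the 197 members with both marks, 1 point per gene. ZNF415 and ZNF461 lie at the lower left in both panels, and ZNF699 and ZNF726 at the upper right in BrM2.

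Zinc finger genes known for DNA methylation in tumours had H3K4me3 in part. Of 15 such members, 6 had a peak at the start of the gene record, ZNF540 and ZNF577 had one at the start of another transcript, and ZNF177, ZNF382, ZNF471, ZNF677, ZNF154, ZNF135 and ZNF793 had none at any annotated coding transcript. The 6 with a peak, ZNF132, ZNF582, ZNF568, ZNF331, ZNF671 and ZNF418, all lay below 0 in both sub-populations, with medians of -0.48 in LM2 and -0.59 in BrM2, beside -0.22 and -0.24 over all members. None was called with line only, and with the block 2 were lower in LM2 and 1 in BrM2. With the block 8.29% and 21.1% of all member peaks were lower, and 7.65% and 14.3% of all coding promoters. Of the 10 members known to bind retroelements, 8 had a peak at the start of the gene record, all 8 below 0, with medians of -0.44 and -0.46. ZNF765 had one at the start of another transcript, and ZNF534 had none at any annotated coding transcript. ZNF649 and ZNF525 were called lower in BrM2 with the block, where 21.1% of all member peaks were. ZNF93, which represses L1 elements, gave 476 and 408 (Par), 358 and 337 (LM2) and 322 and 344 (BrM2), a difference that did not pass the test.

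The genes of the KRAB corepressor machinery, which are no members, lay closer to 0 than these lists. Of 20 genes, 18 had an H3K4me3 peak at the start of the gene record, and UHRF1 and HDAC2 had one at another transcript start. Of the 18, 11 lay below 0 in each sub-population, with medians of -0.16 in LM2 and -0.10 in BrM2. The medians were -0.22 and -0.24 over all members, and 0.00 and -0.08 over all coding promoters. None passed the line-only test in DESeq2. With the block, 2 were higher and 3 lower in LM2, and 0 higher and 3 lower in BrM2. Of all coding promoters, 10.1% were then higher and 7.65% lower in LM2, and 8.65% higher and 14.3% lower in BrM2. TRIM28 gave H3K4me3 counts of 1297 and 939 (Par), 1583 and 1054 (LM2) and 1109 and 886 (BrM2).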

How the data were processed

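Per the labels, the file headers and the study's methods, the authors trimmed reads with Trimmomatic 0.32, aligned them to hg19 with Bowtie2 2.3.4.3 at default settings, marked duplicates with Picard 2.18.21, called broad consensus peaks on the merged libraries of each mark with MACS2 2.1.2, and deposited raw read counts per peak and library from featureCounts 1.6.0 with reads extended by 150 bases. Peaks were thus called on pooled libraries, and a promoter without a consensus peak has no value in any library. A peak marked in only some lines entered the set through those lines, and its p-values do not allow for this. Fixation time differs between the sources.

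Gene starts were taken from the GENCODE 44 annotation lifted to GRCh37, and a peak belonged to a gene if it lay within 2 kb of the start. For each mark DESeq2 1.42.0 (R 4.3.3) was fitted on all peaks and all 6 libraries with cell line as the only term, the Wald test, size factors by the median of ratios, no shrinkage of log2 fold changes, default independent filtering and Benjamini-Hochberg adjustment over all peaks (threshold 0.05). Values named normalised counts are counts divided by these size factors. The fit was tested on simulated data. Alternatives were edgeR 4.0.16 (quasi-likelihood), the replicate number as a block, other size factors, a filter on low counts (mean raw count of at least 10), the 4 libraries of the lines compared, other distances and starts, and leaving out each library. Where a member had several peaks, the one with the highest mean normalised count gave its value. Alignments used Biopython 1.88, and intervals for ratios of reads were exact binomial (scipy 1.17.1), which cover counting error only. 

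Replicate numbers come from the sample titles. In H3K4me3, deviations of same-numbered libraries from their line means correlated at 0.65 to 0.69 over 18457 peaks between the 3 pairs of lines. In H3K27ac they correlated at 0.27 to 0.34 over 47281 peaks, so the numbers were taken to pair the libraries. In every line the shallower library was replicate 1 in H3K4me3 and replicate 2 in H3K27ac, so the number cannot be told apart from depth. The fit with the block left 2 residual degrees of freedom, against 3 with line only. The study's methods call the 2 replicates of a line biological without saying for ChIP whether they were separate cultures, and the p-values measure only the spread between these libraries. Replicates of a line differed by more than sampling noise.

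The members and the gene lists were chosen with earlier results of these data known. The peaks named were, for each mark and comparison, up to 10 called peaks in each direction and, with fewer than 3 called, the 3 with the smallest unadjusted p in that direction. Peaks at other transcript starts, ZNF99, the genes flanking the 19p12 stretch, the clusters described, ZNF77 and the members called only with the block were singled out after their values were seen. The sequence upstream of one start in the 19p12 stretch is not reported here. Protein sequences and input samples were not used here.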

Additional observations from a re-analysis of the deposited data

Results flagged for a closer look

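There were 3 member peaks that differed between BrM2 and LM2 in the direct test of the 2 sub-populations, which is the same as testing whether their differences from Par are equal. For H3K4me3 these were ZNF492, with a log2 difference of 5.36 ± 0.88 (SE; DESeq2 adjusted p = 3.34e-07), and ZNF257, with 5.42 ± 0.68 (DESeq2 adjusted p = 1.42e-12). For H3K27ac it was ZNF699, with 1.77 ± 0.27 (DESeq2 adjusted p = 1.05e-07). In each case both BrM2 libraries lay above both LM2 libraries. The ZNF492 and ZNF257 peaks held few reads outside BrM2, so the choice of consensus peaks favoured a high BrM2 value there. Of the other members in the 19p12 stretch, the ZNF98 start differed as well, whereas ZNF730 was raised in both sub-populations and its step between them passed only with the replicate number as a block (DESeq2 adjusted p = 0.0562 without and 0.00343 with it).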

How the results depend on the processing

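The calls at ZNF257 and ZNF492 in H3K4me3, and at ZNF699 between BrM2 and LM2 in H3K27ac, were kept under every alternative run. The replicate block moved the H3K4me3 counts. With DESeq2 and the block, 19 member peaks were called in LM2 against Par, 50 in BrM2 against Par and 34 in BrM2 against LM2, where line alone gave 0, 2 and 2. With edgeR and the block these were 57, 93 and 51, and for H3K27ac 9, 13 and 13, where line alone gave 0, 2 and 1. In H3K4me3 this fit called 29.4%, 47.9% and 26.3% of member peaks, where 26.2%, 33.3% and 38.6% of all peaks were called. The shares of all coding promoters were 32.2%, 40.2% and 45.5%. Only the share in BrM2 against Par was above both, and there 47.2% of ZNF promoters elsewhere were called. In H3K27ac the fit called 4.71%, 6.81% and 6.81% of member peaks, below the 13.2%, 15.9% and 12.5% of all peaks. The block changed no H3K27ac count in DESeq2. With all transcript starts the H3K4me3 counts were 2, 5 and 4, since ZNF43, ZNF730, ZNF98 and ZNF331 entered through other starts. Size factors from other chromosome 19 peaks added 1 call in LM2 (ZNF132 in H3K4me3). The H3K27ac count in BrM2 against Par was 1 with only the 4 libraries of those lines, and 0 to 1 when 1 library was left out. It was 0 without Par replicate 2, BrM2 replicate 1 or BrM2 replicate 2, and the other leave-outs kept ZNF699 but not ZNF415. Among 468 refits of the 36 named values, 418 kept the side of the threshold, 40 became called, 39 of them with the block, 10 lost the call, and none changed sign. Each comparison rests on 2 libraries a line, and peaks with few reads, such as ZNF99, limit what can be called.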
